A study of Homo sapiens with 6 samples.

Results

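The matrix metalloproteinases (MMPs) and their tissue inhibitors (TIMPs) were examined in tumors grown in nude mice from BxPC-3, a cell line of human pancreatic adenocarcinoma. The members were MMP1, MMP2, MMP7, MMP9, MMP10, MMP13, MMP14, TIMP1, TIMP2 and TIMP3, and they were found by matching these 10 symbols to the gene names of the array. They were represented by 11 of the 50599 probes on the array, with MMP2 on 2 probes and every other gene on 1. Of these 11 probes, 9 passed the detection filter, and these stood for 9 of the 22718 gene names with a tested probe.

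BxPC-3 cells mixed with Matrigel were injected under the skin of the back in female BALB/c (nu/nu) mice aged 8 to 10 weeks, and treatment started at a tumor volume of 150 mm3. The 3 DFX tumors came from mice given 200 mg/kg of deferasirox (DFX), an oral iron chelator, as a saline suspension by gavage on alternate days, 3 times a week for 21 days, and the 3 control tumors from mice given only the saline vehicle. Both groups were grown from this 1 line. Nude mice lack T cells but keep their own fibroblasts, vessels and other leukocytes, so that RNA from a removed tumor could also hold mouse transcripts, while the 60-mer probes were designed for human genes. The tumors were picked at random within each treatment group, and the labels do not say whether each came from a different mouse. The p-values set a difference against the spread between these tumors, which limma moderates over all tested probes.

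MMPs are zinc-dependent endopeptidases that cut collagens, laminins, fibronectin and other proteins around cells, and most are secreted as inactive precursors. TIMPs bind the active site of MMPs and block it. In pancreatic cancer, a tumor with a dense collagenous stroma, MMPs are known for their part in invasion and in the release of growth factors from the matrix. Expression on the array is a measure of RNA, and it does not give the amount of active enzyme.

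Sequences are shown for the 3 genes that passed the unadjusted test between the groups, MMP7, MMP14 and TIMP3, and for MMP10, which had the largest difference among the MMPs. The MMP7 probe lies on the minus strand at chr11:102394029-102394088 of hg19, and the capitals mark the codon of the last histidine in the zinc-binding motif of the catalytic domain.
MMP7 probe: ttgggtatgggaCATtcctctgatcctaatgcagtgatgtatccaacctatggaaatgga
The promoters below are the 250 bases before the RefSeq start of each gene on GRCh38.p14, read from 5′ to 3′ on the strand of the gene. Capitals mark the AP-1 motif TGANTCA and the TATA box TATAAA, which were searched on both strands.
MMP7 promoter, chr11:102530748-102530997, minus strand: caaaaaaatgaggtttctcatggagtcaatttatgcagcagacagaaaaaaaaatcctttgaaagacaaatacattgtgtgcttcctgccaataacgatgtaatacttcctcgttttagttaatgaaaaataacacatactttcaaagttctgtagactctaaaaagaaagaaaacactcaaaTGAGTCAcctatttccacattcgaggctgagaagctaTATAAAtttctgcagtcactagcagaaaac
MMP10 promoter, chr11:102780629-102780878, minus strand: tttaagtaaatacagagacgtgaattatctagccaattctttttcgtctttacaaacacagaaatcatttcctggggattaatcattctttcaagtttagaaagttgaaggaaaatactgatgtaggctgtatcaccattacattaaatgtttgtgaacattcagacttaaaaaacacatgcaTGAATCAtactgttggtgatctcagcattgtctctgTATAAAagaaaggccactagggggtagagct
MMP14 promoter, chr14:22836335-22836584, plus strand: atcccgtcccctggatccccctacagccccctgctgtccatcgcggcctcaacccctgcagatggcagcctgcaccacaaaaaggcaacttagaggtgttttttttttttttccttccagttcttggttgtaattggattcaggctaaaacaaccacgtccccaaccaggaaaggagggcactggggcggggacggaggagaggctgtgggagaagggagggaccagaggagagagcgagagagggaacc
TIMP3 promoter, chr22:32801455-32801704, plus strand: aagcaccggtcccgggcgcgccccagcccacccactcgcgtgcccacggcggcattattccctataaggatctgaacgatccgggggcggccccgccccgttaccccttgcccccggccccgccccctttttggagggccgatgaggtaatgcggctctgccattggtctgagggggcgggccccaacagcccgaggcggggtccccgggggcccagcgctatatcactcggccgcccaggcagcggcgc
The promoters of MMP7 and MMP10 had the same layout, with 1 AP-1 motif 67 bases before the start in each and 1 TATA box 30 bases before the start in MMP7 and 31 bases before it in MMP10. Neither motif was found in these windows of MMP14, TIMP3 or TIMP1. Of 35116 promoters of this length, 6.57% held the AP-1 motif and 10.72% the TATA box. The GC content was 33.6% for MMP7 and 34.4% for MMP10, below the lower quartile of all promoters (46.4%). It was 56.8% for MMP14, near the median of 58.0%, and 72.4% for TIMP3, above the upper quartile of 68.0%. ACGTG, a core of the hypoxia response element, stood once each in the MMP10, MMP14 and TIMP1 windows and in 18.5% of all promoters, and GCGTG, the other form of this core, stood once each in the TIMP3 and TIMP1 windows and in 32.2% of all promoters. The promoters of 5 of the 10 members were matched in the RefSeq table, and such a match of letters is a description of the window.

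The 6 arrays lay on 1 slide, with the control tumors in row 1 and the DFX tumors in row 2, so slide row and treatment cannot be told apart. Between 50.3% and 56.5% of probes were well above background on an array, with the lowest share in DFX tumor 2, and no spot of a member was saturated. Log2 intensities of tested probes correlated between 0.983 and 0.990 among control tumors, between 0.984 and 0.987 among DFX tumors and between 0.980 and 0.988 across groups. Epithelial markers chosen for BxPC-3 were well above background on all 6 arrays for 12 of 12 genes. Values below are log2 intensities after quantile normalization, and a gene with several tested probes is represented in the lists by its brightest one. Levels were not compared between genes. A probe was called when its two-sided limma p was under 0.05 without adjustment, the threshold used in the study. For the members, the p adjusted over all 31807 tested probes by the Benjamini-Hochberg method is given beside it. List and marker genes are given with the unadjusted p only.

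To examine whether DFX treatment was accompanied by a change in the MMP and TIMP transcripts, the 9 tested probes were compared between the groups. MMP7 was higher in DFX tumors by 30.8% and MMP14 by 24.1%, and TIMP3 was lower by 43.0%. The other 6 probes missed the threshold. The 3 called probes made up 33.3% of the 9 tested members, while 8.41% of all tested probes were called, 3.46% higher and 4.95% lower. Counted by gene name, 10.8% of all tested genes had a called probe. At an adjusted p under 0.05 none of the 9 members and 0% of all tested probes passed with limma. The adjusted p of the members lay between 0.546 and 0.978, and the lowest over all probes was 0.0675. The 3 called members were also the 3 whose groups did not overlap, which was the case for 15.5% of all tested probes. All 6 tested MMPs had a positive difference, with a median of 0.42 on the log2 scale, and the median over the 9 members was 0.31, beside -0.02 over all tested probes. The 10 other MMPs that were tested, which are not members, had a median of -0.06. Control tumor 3 was the lowest of the 6 tumors for MMP7, MMP9, MMP10 and MMP14 and the highest for MMP13. The count of 3 calls rested on single tumors. It was 0 without control tumor 1 and without DFX tumor 1, and 1 without control tumor 3 (MMP13) and without DFX tumor 3 (TIMP3). Without DFX tumor 2, the one with the lowest share of probes above background, 3 members were called, namely MMP9, MMP10 and MMP14. With each array scaled to its median in place of quantile normalization, TIMP3 alone of the 9 members was called.

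**Figure D1:**
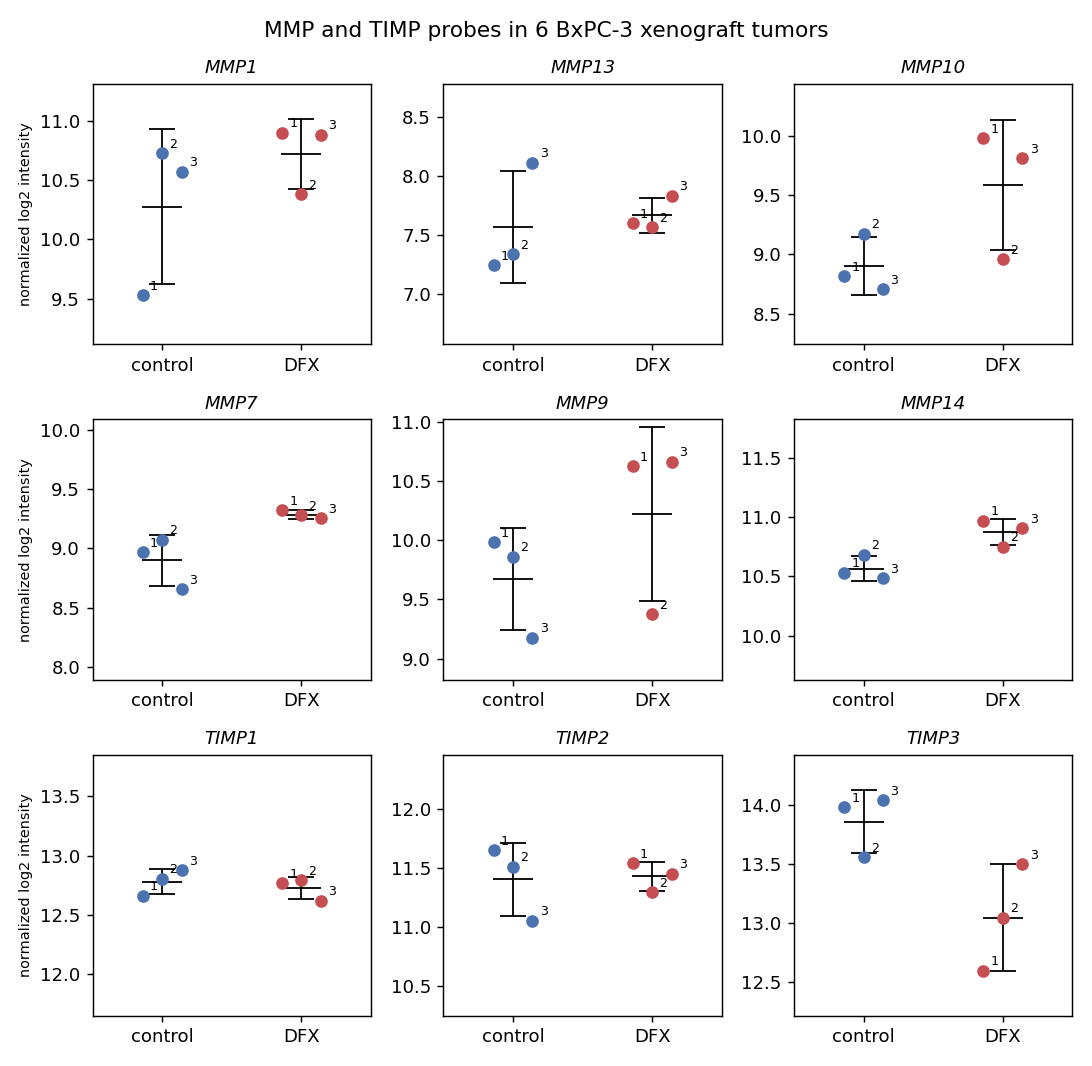
Normalized log2 intensity (vertical axis, each panel 2.2 units high) of the 9 tested MMP and TIMP probes in the 3 control tumors (blue) and the 3 DFX tumors (red), numbered by replicate, with bars for the mean ± SD. The groups are apart for MMP7, MMP14 and TIMP3 and overlap for the other 6 genes.

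MMP1 and MMP13 are interstitial collagenases, which cleave the triple helix of fibrillar collagens. MMP1 was measured at 9.53, 10.73 and 10.57 in control tumors 1 to 3 and at 10.90, 10.38 and 10.89 in DFX tumors 1 to 3. Control tumor 1 was the lowest of the 6, and the groups overlapped. The means were 10.28 ± 0.65 and 10.72 ± 0.29 (SD, n = 3 each). The difference of 0.45 (SE 0.35, 95% interval -0.40 to 1.30) did not pass the test, with a limma p of 0.246 and an adjusted p of 0.739. The array carried the MMP1 probe on 10 spots, and 9 of its spot values over the 6 arrays were left out as outliers. The remaining spots of an array had an SD of 0.027 to 0.060 on the log2 scale, well under the spread between tumors of 1 group. MMP13 was measured at 7.25, 7.34 and 8.11 in control tumors and at 7.60, 7.56 and 7.83 in DFX tumors. The DFX values lay inside the range of the control values. The difference was 0.10 (SE 0.25, 95% interval -0.51 to 0.71), with a limma p of 0.705 and an adjusted p of 0.926. Control tumor 3 carried the highest MMP13 value, and without it the difference was 0.37 with an unadjusted limma p of 0.0383. The sign of the MMP13 difference turned to -0.06 without control tumor 1 and to -0.01 without control tumor 2.

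MMP2 and MMP9 are gelatinases, which degrade denatured collagen and the type IV collagen of basement membranes. MMP2 was not well above background on any array with either probe. Its probes had values of 1.99 to 2.02 and 2.11 to 3.21, with the highest in control tumor 1, and no fold was calculated. The MMP2 probes are annotated at chr16:55423671-55423730 and chr16:55540518-55540577 of hg19, which is 116.8 kb apart, whereas the RefSeq MMP2 gene is 27.9 kb long. MMP9 was measured at 9.98, 9.86 and 9.18 in control tumors and at 10.63, 9.37 and 10.66 in DFX tumors. DFX tumors 1 and 3 were above all controls, while DFX tumor 2 was inside their range. The means were 9.67 ± 0.43 and 10.22 ± 0.73 (SD, n = 3 each), and the difference of 0.55 (SE 0.41, 95% interval -0.45 to 1.55) had a limma p of 0.230 and an adjusted p of 0.732. Without DFX tumor 2 the difference was 0.97 with an unadjusted limma p of 0.0154. MMP9 had the widest range of the members, 2.80-fold between the lowest and the highest tumor. The 10 spots of the MMP9 probe differed with an SD of 0.037 to 0.066 within an array.

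MMP7, matrilysin, is a small MMP without the hemopexin domain and is made by epithelial cells rather than by stroma. It was measured at 8.97, 9.07 and 8.66 in control tumors and at 9.32, 9.28 and 9.26 in DFX tumors. Every DFX tumor was above every control tumor, and the nearest tumors of the groups were 0.18 apart. The means were 8.90 ± 0.22 and 9.29 ± 0.04 (SD, n = 3 each). The difference of 0.39 (SE 0.14, 95% interval 0.05 to 0.72) passed the unadjusted test with a limma p of 0.0305, and the adjusted p was 0.570. The unadjusted p was between 0.0501 and 0.0857 when control tumor 1, control tumor 3 or any of the 3 DFX tumors was left out, with differences of 0.27 to 0.42, and it was 0.0801 with median scaling. EPCAM, KRT8 and KRT18, which mark epithelial cells, were also higher in DFX tumors on their brightest probes, by 0.43 (unadjusted limma p of 0.00876), 0.48 (0.0228) and 0.27 (0.0340) on the log2 scale. The signal summed over the 12 epithelial markers was 774307 to 850550 in control tumors and 838408 to 842973 in DFX tumors. The brightest of them, KRT19, was at 18.54, 18.44 and 18.44 in control tumors and at 18.44, 18.50 and 18.54 in DFX tumors. Quantile normalization gives the arrays the same values at the top of the scale, which limits what this sum can show. The part of epithelial cells in the MMP7 result was not tested. In RNA from a whole tumor, a change in the number of cells of a type and a change in RNA per cell cannot be told apart.

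MMP10, stromelysin 2, cleaves proteoglycans, laminin and fibronectin and activates the precursors of other MMPs. It was measured at 8.82, 9.17 and 8.70 in control tumors and at 9.98, 8.96 and 9.81 in DFX tumors. DFX tumors 1 and 3 were above all control tumors and DFX tumor 2 was not, so that the groups overlapped. The means were 8.90 ± 0.25 and 9.58 ± 0.55 (SD, n = 3 each). The difference of 0.69 (SE 0.30, 95% interval -0.04 to 1.41) had a limma p of 0.0598 and an adjusted p of 0.609. It was 0.64 with an unadjusted p of 0.0264 after normexp background correction, 0.69 with 0.0419 when the fit was limited to probes that every array showed well above background, and 0.998 with 0.00285 without DFX tumor 2. DFX tumors 1 and 3 stood 1.08 and 0.91 above the control mean of MMP10, and 0.95 and 0.99 above that of MMP9, while DFX tumor 2 stood at 0.06 for MMP10 and at -0.30 for MMP9.

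MMP14, also called MT1-MMP, is anchored in the cell membrane, where it cuts collagen and activates pro-MMP2 in a complex with TIMP2. It was measured at 10.53, 10.68 and 10.48 in control tumors and at 10.97, 10.75 and 10.91 in DFX tumors. All DFX tumors were above all control tumors, but DFX tumor 2 exceeded control tumor 2 by only 0.07. The means were 10.57 ± 0.10 and 10.88 ± 0.11 (SD, n = 3 each). The difference of 0.31 (SE 0.12, 95% interval 0.03 to 0.59) passed the unadjusted test with a limma p of 0.0357, and the adjusted p was 0.578. The unadjusted p was between 0.0822 and 0.120 without control tumor 1, control tumor 3, DFX tumor 1 or DFX tumor 3, with differences of 0.265 to 0.30. It was also over the threshold with median scaling (difference 0.19, unadjusted p of 0.184) and with the replicate number as a block (0.31, 0.0924).

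TIMP1 and TIMP2 are secreted inhibitors. TIMP1 was measured at 12.66, 12.80 and 12.88 in control tumors and at 12.77, 12.79 and 12.62 in DFX tumors. The groups overlapped, and the highest tumor exceeded the lowest by 1.19-fold, the narrowest range among the 9 tested members. The TIMP1 difference was -0.05 (SE 0.11, 95% interval -0.33 to 0.22), with a limma p of 0.645 and an adjusted p of 0.907. TIMP2 was measured at 11.65, 11.51 and 11.06 in control tumors and at 11.54, 11.30 and 11.45 in DFX tumors. The DFX values of TIMP2 lay inside the control range, in which control tumor 3 was the lowest. Its difference was 0.03 (SE 0.18, 95% interval -0.42 to 0.47), with a limma p of 0.892 and an adjusted p of 0.978. The sign of this difference was negative without control tumor 3 (-0.15), without DFX tumor 1 (-0.03) and with median scaling (-0.09).

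TIMP3 differs from the other TIMPs in that it stays bound to the extracellular matrix, and it also inhibits ADAM17, the protease that sheds tumor necrosis factor. It was measured at 13.98, 13.56 and 14.04 in control tumors and at 12.60, 13.05 and 13.50 in DFX tumors. Every DFX tumor was below every control tumor, with DFX tumor 3 only 0.06 below control tumor 2. The means were 13.86 ± 0.26 and 13.05 ± 0.45 (SD, n = 3 each). The difference of -0.81 (SE 0.26, 95% interval -1.45 to -0.17) passed the unadjusted test with a limma p of 0.0208, the lowest among the members, and the adjusted p was 0.546. In DFX tumors 1 to 3 it differed from the control mean by -1.26, -0.81 and -0.36. The unadjusted p was between 0.0503 and 0.0661 without control tumor 1, control tumor 3, DFX tumor 1 or DFX tumor 2, with differences of -0.81 to -0.59. Probes for fibroblast markers moved in both directions beside TIMP3. The implanted cells were a human epithelial line and the fibroblasts were those of the mouse, so these human probes do not count fibroblasts. Which cells gave their signal was not tested. DCN and PDGFRA were lower by -1.30 (unadjusted limma p of 0.00637) and -1.12 (0.00978) on the log2 scale, LUM was higher by 0.87 (0.0435), and neither PDGFRB nor POSTN was above background by this flag in any tumor. Of the 12 fibroblast markers 9 were tested, and their summed signal was 14394 to 23791 in control tumors and 13233 to 16336 in DFX tumors. The part of fibroblasts in the TIMP3 difference was not tested.

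**Figure D2:**
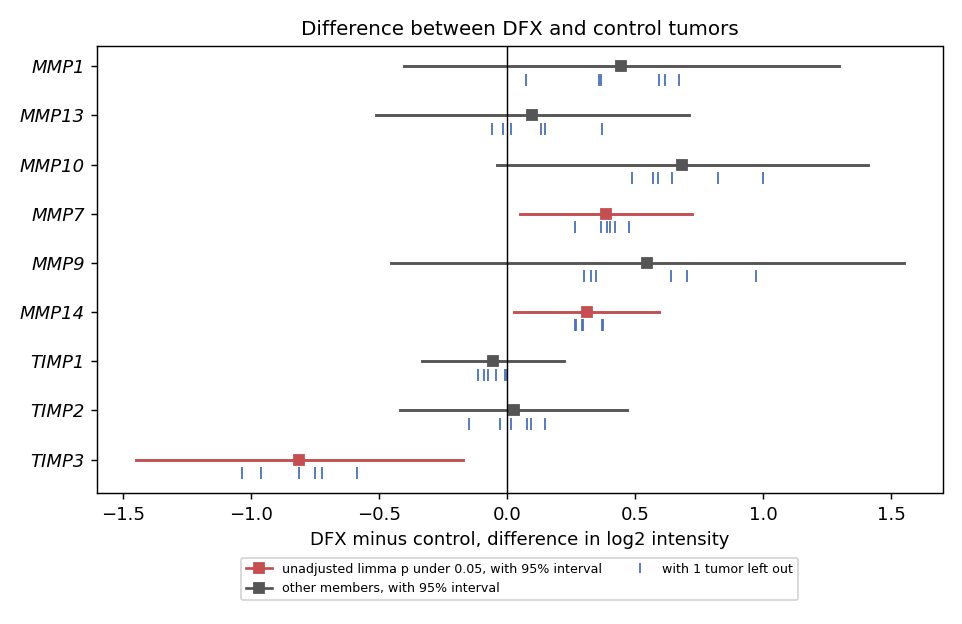
Difference between the means of the 3 DFX and the 3 control tumors in log2 intensity (horizontal axis) for the 9 tested genes, as squares with the 95% interval of limma, red where the unadjusted p was under 0.05, and as blue ticks with 1 tumor left out. The interval of TIMP3 runs from -1.45 to -0.17, the intervals of MMP7 and MMP14 lie above 0, and the ticks of MMP13 and TIMP2 fall on both sides of 0.

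The spread within groups differed between members. The pooled within-group SD on the log2 scale was 0.10 for TIMP1, 0.11 for MMP14, 0.16 for MMP7 and 0.24 for TIMP2. It was larger for MMP13 (0.35), TIMP3 (0.37), MMP10 (0.42), MMP1 (0.51) and MMP9 (0.60), and the median over all tested probes was 0.22. The 2 called MMPs were thus among the members with a small spread, and MMP9 and MMP10 had larger differences with a larger spread. DFX tumor 2 was the lowest DFX tumor for MMP1, MMP9, MMP10, MMP13, MMP14 and TIMP2.

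**Figure D3:**
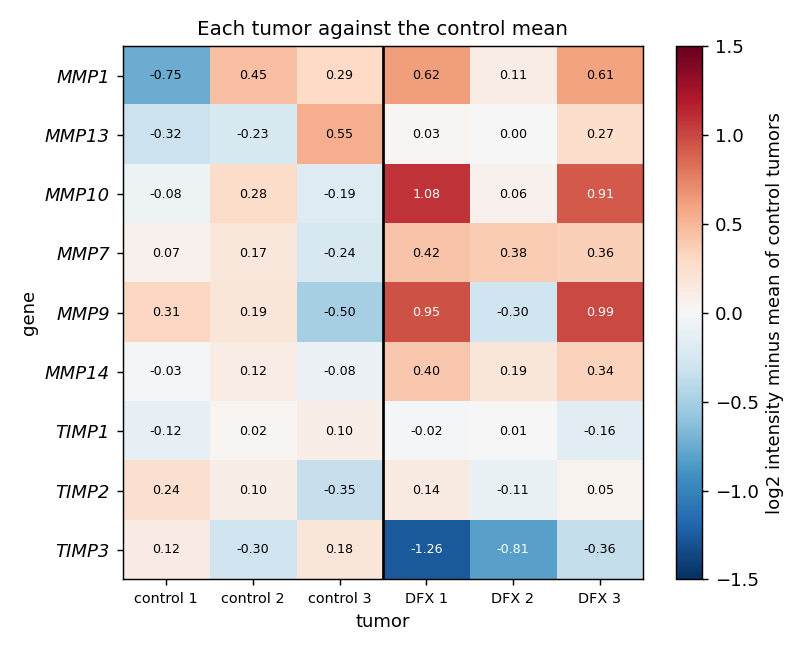
Log2 intensity of each tumor minus the control mean of the gene (color scale and printed values) for the 9 tested genes (rows) in the 3 control and 3 DFX tumors (columns). MMP9 and MMP10 are high in DFX tumors 1 and 3, at 0.91 to 1.08, and TIMP3 is negative in the 3 DFX tumors.

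MMP1, MMP7, MMP10 and MMP13 belong to a cluster of MMP genes on chromosome 11. The probes of 9 cluster genes spanned 420 kb of hg19 in the order MMP7, MMP20, MMP27, MMP8, MMP10, MMP1, MMP3, MMP12 and MMP13. Of these, 5 were well above background on all arrays (MMP7, MMP10, MMP1, MMP12 and MMP13) and 4 on none. Neighbouring genes of the cluster therefore differed in whether they were detected. MMP12, the macrophage elastase, was measured at 6.21, 7.07 and 6.45 in control tumors and at 7.06, 5.85 and 7.03 in DFX tumors. Its groups overlapped, and the difference of 0.07 had an unadjusted limma p of 0.871. The member probes did not share long stretches, since the longest run of identical bases ranged from 4 to 9 of 60 over the 55 pairs. The probes outside this cluster were annotated on hg19 at chr20:44645121-44645180 for MMP9, chr14:23315791-23315850 for MMP14, chrX:47444666-47444725 for TIMP1, chr17:76849063-76849122 for TIMP2 and chr22:33258540-33258599 for TIMP3.

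The other genes of the MMP system were read from 6 lists with 74 genes, of which 58 were tested. A gene with at least 1 called probe was counted as called, and 9 of the 58 were, or 15.5%, beside 10.8% of all tested genes. Of the 9, 3 were higher and 6 lower. The median difference over the 58 genes, each by its brightest tested probe, was -0.07, beside -0.01 over all tested genes. The count was 4 without DFX tumor 1 and 5 without DFX tumor 3.

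Among the other MMPs, 10 of 17 were tested and 1 was called. MMP15, a membrane-type MMP like MMP14, was measured at 10.12, 10.14 and 9.85 in control tumors and at 10.59, 10.63 and 10.31 in DFX tumors. All DFX tumors were above all control tumors, and the difference of 0.47 (SE 0.14) had an unadjusted limma p of 0.0157. MMP28, epilysin, was at -0.22 with a p of 0.0695, and MMP17, a membrane-type MMP, at 0.15 with a p of 0.530. MMP3, MMP8, MMP16, MMP20, MMP21, MMP26 and MMP27 did not rise well above background in any tumor. The median over the 10 genes was -0.06.

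Among 6 other inhibitors or clearance partners, 4 were tested and THBS2, which binds MMP2 for uptake, was called on 1 of its probes. That THBS2 probe was well above background in the 3 control tumors and in none of the DFX tumors. The control level was at least 1.29-fold higher, a bound set by the dimmest signal well above background on each array. The brighter THBS2 probe differed by -0.52 with an unadjusted limma p of 0.189. TIMP4, the remaining TIMP, was at 0.05 with a p of 0.858, and RECK, a membrane-anchored inhibitor, was not well above background on any array.

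Plasmin activates several pro-MMPs. Of the 11 genes around plasminogen activation 9 were tested, with a median of -0.22, and 2 were called. PLAT, tissue plasminogen activator, was measured at 14.50, 14.26 and 13.95 in control tumors and at 14.82, 14.80 and 14.80 in DFX tumors. The DFX tumors were close together and all above the controls, and the difference of 0.57 (SE 0.16) had an unadjusted limma p of 0.0113. SERPINB2, an inhibitor of plasminogen activators, differed by -0.68 with a p of 0.0345 on its brighter probe, with overlapping groups. PLAU, urokinase, differed by -0.22 with a p of 0.132. None of the 8 tested ADAM and ADAMTS proteases of 13 on the list was called, and their median was 0.04. ADAM17 differed by -0.20 with an unadjusted limma p of 0.0673, its 3 DFX tumors below the control tumors, and ADAM8 by 0.05 with a p of 0.759.

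The 14 partners of MMPs at the cell surface were all tested, and 3 were called lower and none higher. These were 21.4% of the list, beside 10.8% of all tested genes, of which 1011 had a probe called higher and 1455 a probe called lower. CD9, a tetraspanin, differed by -0.50 with an unadjusted limma p of 0.00462 and without overlap. CD44, the hyaluronan receptor to which MMP9 and MMP14 bind, was called on a dim probe at -0.44 with a p of 0.0262, whereas its brightest probe was at -0.12 with a p of 0.496. PCSK6, a proprotein convertase, was called on 1 probe at -0.65 with a p of 0.0302, and its brighter probe was at -0.25 with a p of 0.0780. The median over the 14 genes was -0.05. AP-1 and ETS factors and RUNX2 bind many MMP promoters, and all 13 on this list were tested. FOSL2 was higher by 0.47 with an unadjusted limma p of 0.0319, and JUNB was lower by -0.54 with a p of 0.0293. FOS was at -0.13 and JUN at -0.14, with p of 0.580 and 0.423, and the median over the 13 factors was -0.04.

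**Figure D4:**
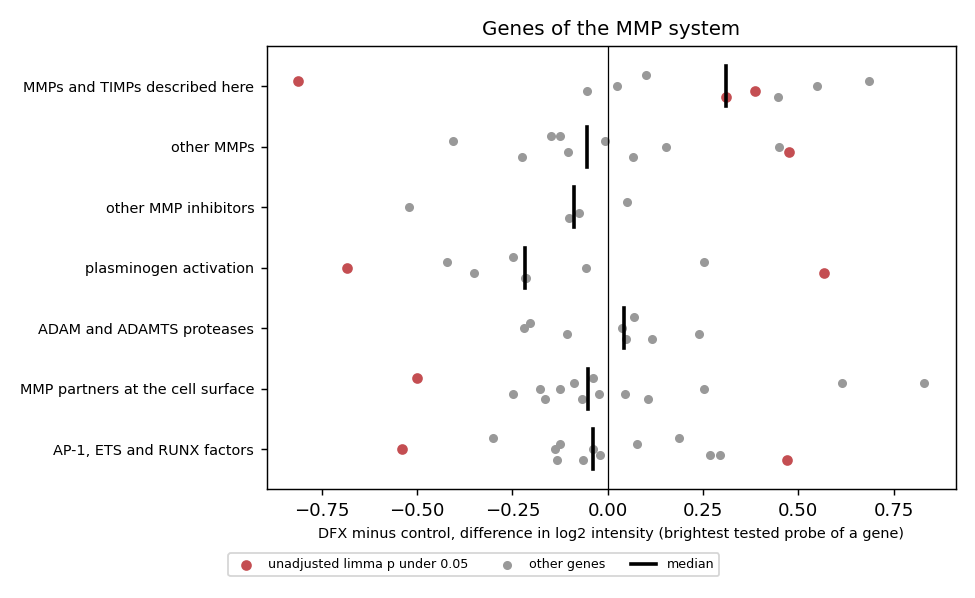
Difference between the DFX and control means in log2 intensity (horizontal axis) for each tested gene of the members and of 6 lists of the MMP system (rows), with the brightest tested probe per gene, red where its unadjusted limma p was under 0.05 and a black bar for the median. The members have a median of 0.31, and the medians of the 6 lists lie between -0.22 and 0.04.

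Markers of other cells were read beside the members, since MMP9 is also made by neutrophils and macrophages and several MMPs by fibroblasts. Leukocytes and vessels in these tumors were those of the mouse, while the probes were designed for human genes. The sums below therefore do not count such cells, and which cells gave the signal was not tested. Of 15 leukocyte marker symbols 12 were on the array, 9 were tested and none was called. The summed signal of the 9 was 4393 to 29492 in control tumors and 8265 to 9084 in DFX tumors. The upper end of this range came from S100A8 and S100A9 in control tumor 1, at 14.37 and 12.46 there and at 9.44 and 10.46 in control tumor 2. Without these 2 genes the sum was 2287 to 2683 in control tumors and 2448 to 2799 in DFX tumors. CD163, CSF1R and FCGR3A did not rise well above background in any tumor. Of 10 endothelial markers 7 were tested. PECAM1 was higher by 1.27 with an unadjusted limma p of 0.000475, TIE1 was lower by -0.78 with a p of 0.0315, and the summed signal was 701 to 1097 in control tumors and 675 to 765 in DFX tumors. The part of these cells in the MMP9 values was not tested.

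Genes whose pattern over the 6 tumors was most like that of a member were sought among 24362 other probes with a signal well above background in every tumor. For TIMP3, the member with the lowest p, these were LOC100499467 (Pearson r = 0.993), LOC100507316 (0.991), PRDM2 (0.989), OSBPL9 (0.988) and ZNF507 (0.988). For MMP9, the member with the widest range, these were C5orf63 (r = 0.992), XLOC_003305 (0.991), XLOC_012253 (0.990), EPB41L1 (0.989) and XLOC_013808 (0.988). With 6 tumors and this many probes, high correlations describe a shared pattern in these arrays and were not tested.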

How the data were processed

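RNA from 3 control and 3 DFX tumors was hybridized, with a single Cy3 label, to arrays of human 60-mer probes. The authors deposited 1 scanner file per array, with intensities that were background-subtracted within the array but not normalized between arrays, flags, and a p-value that compares every spot with background; the labels name Agilent Feature Extraction 9.5.1.1 and the file headers 10.7.1.1. They also deposited a table of quantile-normalized intensities on a linear scale. The detection p-value column and the array test are not given in the sources used here.

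The processed signal of 58717 non-control spots was log2-transformed and quantile-normalized. The 1398 outlier spot values were left out and the spots of a probe averaged. The 31807 probes whose background p-value was under 0.05 in every tumor were compared with limma 3.58.1 in R 4.3.3 (lmFit and eBayes, residual degrees of freedom 4, prior 2.045). The exact permutation test of 3 tumors against 3 cannot give a p under 0.1. The precision is limited by the number of arrays.

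The members and gene lists were chosen with earlier results of these data known. The text names all members, list genes with a called probe, up to 3 list genes with the brightest probes as further examples, and the 5 genes most like TIMP3 and MMP9; MMP12, TIMP4 and ADAM17 were added as relatives or targets of the members after their values were seen. Positions of probes were taken from the array's annotation (hg19), and promoters are from RefSeq on GRCh38.p14. Tumors with the same replicate number deviated together with correlations of 0.027, 0.027 and 0.016, and the tumors were not treated as pairs. Alternatives covered scaling, background correction, the authors' table, filters, outlier spots, the Kruskal-Wallis H test, the replicate number as a block, median scaling (chosen after seeing the data) and each tumor left out.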

Additional observations from a re-analysis of the deposited data

How the results depend on the processing

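The TIMP3 difference kept its sign and stayed past the unadjusted threshold under the 9 alternatives that kept all tumors, at -0.91 to -0.77. MMP1 and TIMP1 kept their sign and stayed short of the threshold under all 15 alternatives. With median scaling the median difference over all tested probes was -0.10, MMP14 was at 0.19, MMP7 at 0.29 and TIMP2 at -0.089; relative to that median they were at 0.30, 0.39 and 0.01. Median scaling left 1 member call and moved the median of the MMP-system lists to -0.14. MMP10 passed the unadjusted threshold at 0.64 with normexp and at 0.69 with the filter on well-above-background flags. With the replicate block MMP14 was at 0.31 (unadjusted limma p of 0.0924), which left 2 member calls, and the block changed no other member call. The cause of these changes was not tested.

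With 1 tumor left out, the differences ranged from 0.073 to 0.67 for MMP1, 0.30 to 0.97 for MMP9, 0.487 to 0.9984 for MMP10, -0.0602 to 0.3718 for MMP13, 0.265 to 0.3735 for MMP14, 0.2652 to 0.4745 for MMP7, -0.1145 to -0.0017 for TIMP1, -0.1486 to 0.1475 for TIMP2 and -1.0367 to -0.586 for TIMP3. MMP7 stayed past the threshold in 1 of these 6 fits, MMP14 in 2 and TIMP3 in 2. The count of called members ranged from 0 to 3, the count of called list genes from 4 to 10 and the median of the lists from -0.1239 to 0.0386.

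Of all called probes 58.8% were lower in DFX tumors, 42.6% with scaling to the 75th percentile and 71.8% with median scaling. The Kruskal-Wallis H test with its chi-square approximation called 4927 probes against 2675 with limma. In 3 tumors against 3 it passes the threshold only where the groups do not overlap, so its calls are the non-overlapping probes, with MMP7, MMP14 and TIMP3 among them, and add nothing to that count. Without the detection filter the MMP2 probes differed by 0.01 and -0.35, with unadjusted limma p of 0.920 and 0.320, and signal near background limits what can be said of MMP2.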

Other observations

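LCN2, whose product forms a complex with MMP9, was measured at 11.78, 11.48 and 9.60 in control tumors and at 11.58, 12.02 and 11.75 in DFX tumors. Control tumor 3, the lowest for LCN2, was also the lowest of the 6 tumors for MMP7, MMP9, MMP10, MMP14 and TIMP2. It was the highest of the 6 for MMP13, TIMP1 and TIMP3. Before normalization between arrays, control tumor 3 had the lowest signal for MMP7 but not for MMP9, MMP10, MMP14 or TIMP2. The LCN2 difference of 0.83 (SE 0.57) had an unadjusted limma p of 0.197, and LCN2 was chosen after its values were seen.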
